A study of Mus musculus with 6 samples.

Results

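Annexins and galectins are soluble proteins of the cytoplasm that also act at membranes and outside the cell. Annexins bind phospholipids in the presence of calcium and take part in membrane repair, vesicle transport and the restraint of inflammation, and annexin A5 is widely used as a stain for dying cells because it binds exposed phosphatidylserine. Galectins are lectins that bind beta-galactoside sugars on glycoproteins; in macrophages they are known for roles in adhesion, phagocytosis and cell death, and galectin 3 is used as a mark of activated or infiltrating macrophages in brain tissue. The genes examined here were 6 annexins (Anxa1, Anxa2, Anxa3, Anxa4, Anxa5, Anxa6), 3 galectins (Lgals1, Lgals3, Lgals9) and Lgals3bp, which encodes a secreted glycoprotein bound by galectin 3. They were chosen by gene symbol, and all 10 were found among the 35237 genes of the FPKM table and among the 36536 genes of the ALEXA-Seq table. Both tables were made from the same RNA-Seq libraries, and FPKM (fragments scaled by transcript length and library size) is the scale on which levels of different genes are compared below.

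The libraries came from C57BL/6 mice aged 6 weeks, with no treatment named for either cell type. Marrow monocytes (BMDM, 3 libraries) and brainstem microglia (BSM, 3 libraries) were FACS-sorted after Percoll enrichment, both as CD11b+ Ly6G- cells. BMDM were CD45high and CD115+, and BSM were CD45low and CD115low. Within each cell type the libraries held the RNA of independent pools of mice. Per the labels replicate 1 was male and replicates 2 and 3 were female in both groups. The organ, its dissociation and the cell type cannot be told apart in this design, and in bulk RNA fewer cells of a type and less RNA per cell cannot be told apart either.

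The labels were compared with defining markers. The summed FPKM of 6 microglia markers lay between 676 and 753 in BSM and between 17.3 and 18.9 in BMDM, and of the monocyte markers Ly6c2 lay between 13.03 and 29.6 FPKM in BMDM, whereas all BSM libraries listed it at 0. Csf1r, which encodes the sort marker CD115, went the other way, also against the CD115 gate. It was at 102 to 158 FPKM in BSM and 19.1 to 21.3 FPKM in BMDM. Itgam, which encodes the sort marker CD11b, lay between 109 and 132 FPKM in BMDM. In BSM it was above 100 FPKM in 2 of the 3 libraries and listed at 0 in replicate 2. The summed level of the 4 monocyte markers overlapped (296 to 330 in BMDM, 131 to 335 in BSM). The summed FPKM of 8 granulocyte markers was 64.2, 398 and 104 in BMDM replicates 1, 2 and 3 and at most 0.0714 in BSM, with Ly6g above 0 in BMDM replicate 2 alone, and 4 erythroid markers summed to 6.77, 38.4 and 6.86 in BMDM and at most 0.158 in BSM. The 4 perivascular macrophage markers summed to 113 to 159 FPKM in BMDM, nearly all of it F13a1, a gene that monocytes also express, and to at most 4.61 in BSM. Endothelial, astrocyte, oligodendrocyte, neuron and lymphocyte markers summed to at most 9.54 FPKM in any library. BSM replicate 1 stood apart, with 7.42% of the tested genes listed at 0 against 0.80 to 1.81% in the other libraries, and it had the lowest RNA quality in the study's supplementary data. An exact 0 in these tables can be a failed estimate, so values of members listed at 0 are given library by library. By ALEXA-Seq Anxa1 was also listed at 0 in BSM replicates 1 and 2, and Anxa2, Anxa6 and Lgals1 in BSM replicate 1. Whether these were failed estimates was not tested. The FPKM of all genes summed to between 163199 and 194184 in BMDM and between 68288 and 75021 in BSM, and for that reason the directions below were also examined under other scalings of the libraries.

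The members' promoters are shown with the levels because several members differed between the cell types in the same direction. A link between motifs and levels was not tested. RefSeq promoters (GRCm38.p6, from 250 bases before to 50 bases after the start site) were at hand for 7 of the 10 members. None was at hand for Anxa3, Anxa6 and Lgals1. Anxa1 and Anxa2 are shown because they were among the most unequal genes and carry a TATA box, Lgals3 because it differed by a like amount without one, and Lgals9 because it was expressed in both cell types. Capitals mark matches on either strand to 5 searched motifs, the TATA box (TATAAA), GC box (GGGCGG), AP-1 site (TGANTCA), ETS core of PU.1 sites (GAGGAA) and STAT site (TTCNNNGAA).

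Anxa1: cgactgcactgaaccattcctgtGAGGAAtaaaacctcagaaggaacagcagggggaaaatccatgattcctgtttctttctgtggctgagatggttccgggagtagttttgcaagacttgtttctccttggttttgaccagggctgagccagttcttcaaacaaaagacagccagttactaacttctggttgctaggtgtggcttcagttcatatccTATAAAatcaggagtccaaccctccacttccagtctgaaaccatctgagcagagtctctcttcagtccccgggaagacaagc
Anxa2: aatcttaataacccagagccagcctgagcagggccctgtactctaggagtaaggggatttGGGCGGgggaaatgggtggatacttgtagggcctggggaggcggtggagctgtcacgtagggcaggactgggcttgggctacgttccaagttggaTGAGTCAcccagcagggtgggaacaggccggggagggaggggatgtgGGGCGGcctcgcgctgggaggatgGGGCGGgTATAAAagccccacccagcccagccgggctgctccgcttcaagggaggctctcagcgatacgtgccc
Lgals3: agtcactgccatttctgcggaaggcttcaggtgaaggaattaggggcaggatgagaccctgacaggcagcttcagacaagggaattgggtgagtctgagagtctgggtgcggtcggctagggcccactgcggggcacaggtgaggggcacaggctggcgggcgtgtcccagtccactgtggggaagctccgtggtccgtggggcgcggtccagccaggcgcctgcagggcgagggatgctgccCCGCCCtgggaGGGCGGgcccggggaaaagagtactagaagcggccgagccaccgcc
Lgals9: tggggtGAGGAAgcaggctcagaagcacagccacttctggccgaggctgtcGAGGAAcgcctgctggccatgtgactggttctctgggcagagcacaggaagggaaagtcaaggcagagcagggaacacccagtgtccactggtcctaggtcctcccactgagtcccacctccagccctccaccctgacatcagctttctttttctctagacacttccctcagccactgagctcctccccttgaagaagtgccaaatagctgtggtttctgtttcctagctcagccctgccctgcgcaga

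These windows lie at chr19:20390622-20390921 on the minus strand (Anxa1), chr9:69453433-69453732 on the plus strand (Anxa2), chr14:47373610-47373909 on the plus strand (Lgals3) and chr11:78984875-78985174 on the minus strand (Lgals9). The Anxa1 window held a TATA box beginning 32 bases before the start site and an ETS core beginning 227 bases before it. The Anxa2 window held a TATA box 17 bases before the start site, an AP-1 match 95 bases before it and 3 GC boxes. The Lgals3 window held 2 GC boxes around the start site, and the Lgals9 window held 2 ETS cores. The CG dinucleotide occurred 3 times in the Anxa1 window, 13 times in that of Anxa2, 18 times in that of Lgals3 and 4 times in that of Lgals9, against a median of 7 over 32851 promoters. Of those promoters, 13.6% held the TATA box letters, 35.7% the GC box, 7.81% the AP-1 letters, 28.3% the ETS core and 8.30% the STAT letters. Of the members higher in BMDM, Anxa6 and Lgals1 had no window to search. Among the others no motif was found in every promoter, and that of Anxa5 held none of the 5 motifs in these letters.

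Most members were higher in BMDM, and several of these had little or no transcript in BSM. Anxa1, Anxa2, Anxa4, Anxa5, Anxa6, Lgals1 and Lgals3, 7 of 10, were higher in BMDM at an adjusted p under 0.05 (limma, with Benjamini-Hochberg correction over 6364 genes), and no member was higher in BSM. Among all 6364 genes tested, 45.3% were called higher in BMDM and 9.22% higher in BSM. The median log2 fold change of the 10 members, on the scale of log2(FPKM + 1), was 3.32, beside 0.81 for all tested genes. In each of the 7 called members every BMDM library lay above every BSM library, which was so for 55.2% of all tested genes, while 11.6% had every BSM library above every BMDM library. All 10 members reached the FPKM minimum of 3 in a BMDM library but only Anxa3, Lgals9 and Lgals3bp did so in a BSM library, so the other 7 entered the test through BMDM alone. For members at or near 0 in BSM the size of the log2 fold change depends on the pseudocount, and with 0.1 in place of 1 those of Anxa1 and Anxa2 were 7.50 and 7.52. The ALEXA-Seq values called the same 7 members higher in BMDM, where 37.1% of the genes tested were called in that direction and 10.9% in the other.

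**Figure D1:**
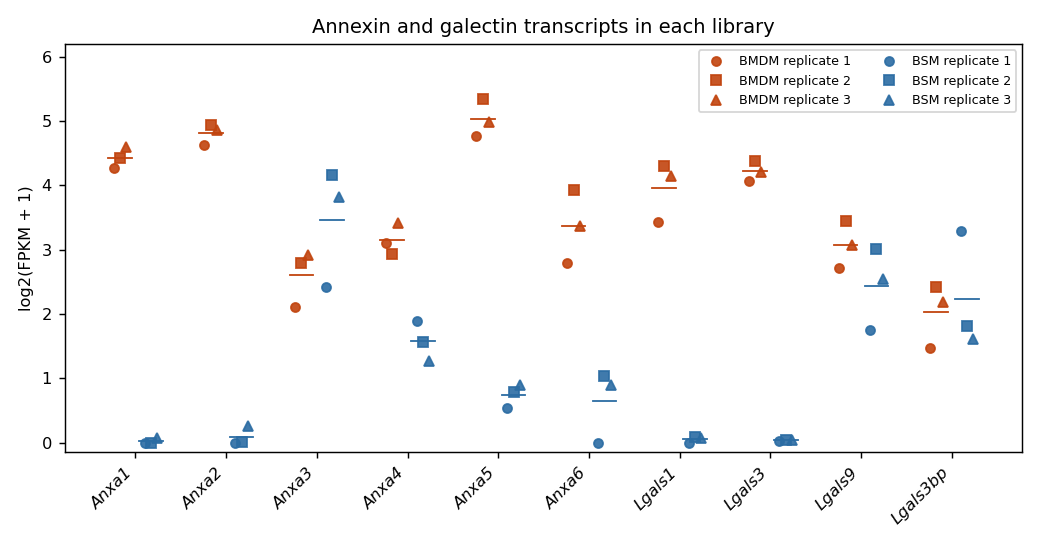
Level of each member in the 6 libraries, as log2(FPKM + 1) on the vertical axis; BMDM libraries are red, BSM libraries blue, the marker shape gives the replicate and the short lines are group means. Anxa1, Anxa2, Lgals1 and Lgals3 lie near 0 in every BSM library, whereas Anxa3, Lgals9 and Lgals3bp are present in both cell types.

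Anxa1, whose product limits leukocyte entry into inflamed tissue, lies on chromosome 19 from 20447920 to 20465162 (mm9). Its FPKM was 18.3, 20.5 and 23.3 in BMDM replicates 1, 2 and 3, and it was listed at 0 in BSM replicates 1 and 2 and at 0.0484 in replicate 3. All 3 BMDM libraries were thus far above every BSM library. The group means differed by 4.41 in log2(FPKM + 1) (± 0.22 SE, limma adjusted p = 6.28e-06).

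Anxa2 encodes the annexin that forms a tetramer with S100a10 and binds plasminogen activators at the cell surface (chromosome 9, 69301427 to 69339602, mm9). It had an FPKM of 23.7, 29.8 and 28.1 in BMDM, and of 0, 0.0109 and 0.192 in BSM replicates 1, 2 and 3. The BSM values were again low in every library, with replicate 3 the highest. On the log2 scale the group means differed by 4.72 (± 0.23 SE, limma adjusted p = 4.95e-06), the largest by FPKM among the 10 members. In GENCODE M21 an antisense gene overlaps exons of Anxa2, and without strand in the libraries their reads cannot be told apart.

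Anxa5 was the most abundant member in BMDM and, unlike Anxa1 and Anxa2, was measured in every BSM library (chromosome 3, 36347847 to 36374765, mm9). The FPKM was 26.2, 39.6 and 30.6 in BMDM and 0.444, 0.733 and 0.863 in BSM. The means of 32.1 ± 6.79 (SD, n = 3) and 0.680 ± 0.215 (SD, n = 3) gave a ratio of 47.2, which stayed between 40.2 and 54.6 whichever library was omitted. In log2(FPKM + 1) the groups differed by 4.29 (± 0.25 SE, limma adjusted p = 1.19e-05).

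Anxa6, the largest annexin, which is built of a doubled core and binds membranes of endosomes, lies on chromosome 11 from 54792610 to 54846947 (mm9). It varied more among replicates, with an FPKM of 5.96, 14.2 and 9.38 in BMDM and of 0, 1.05 and 0.852 in BSM. The libraries of the groups did not overlap, and the value listed at 0 was again that of BSM replicate 1. Their difference was 2.73 in log2 units (± 0.39 SE, limma adjusted p = 0.000951), and without BSM replicate 1 the gene was still called. By ALEXA-Seq the log2 fold change was 4.48 (± 1.16 SE, limma adjusted p = 0.0189), and this call was lost under 6 of 15 alternatives. It was lost without BMDM replicate 2 (adjusted p = 0.0809) or without BMDM replicate 3 (adjusted p = 0.0595). A pseudocount of 0.1 (adjusted p = 0.0589) and a fit over all genes above 0 (adjusted p = 0.0513) also lost it. So did upper quartile scaling (adjusted p = 0.0526) and scaling to the same sum (adjusted p = 0.0825).

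Anxa4 had the smallest difference among the called members (chromosome 6, 86686834 to 86743578, mm9). Its product binds membranes of secretory epithelia and other cells. The FPKM was 7.55, 6.61 and 9.68 in BMDM and 2.72, 1.95 and 1.40 in BSM, so the transcript was present in every library of both cell types. The means of 7.95 ± 1.57 (SD, n = 3) and 2.02 ± 0.667 (SD, n = 3) differed 3.93-fold, or by 1.57 in log2(FPKM + 1) (± 0.27 SE, limma adjusted p = 0.00201). The call did not hold when every library was scaled to the same sum of FPKM, which left a log2 fold change of 0.56 (adjusted p = 0.174). Of its longest transcript 4.9% has a near-identical copy in transcripts of other genes. A non-coding RNA gene also overlaps exons of Anxa4 on the opposite strand.

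The galectins Lgals1 and Lgals3 followed the pattern of Anxa1 and Anxa2. Lgals1, whose product induces death of activated T cells (chromosome 15, 78757172 to 78760622, mm9), had an FPKM of 9.73, 18.8 and 16.7 in BMDM and of 0, 0.0575 and 0.0490 in BSM. The lowest BMDM value was that of replicate 1, still far above all BSM values. BMDM exceeded BSM by 3.91 log2 units (± 0.29 SE, limma adjusted p = 3.52e-05).

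Lgals3, the galectin with a single lectin domain joined to a long flexible tail (chromosome 14, 47987426 to 48005835, mm9), varied little among replicates. It had an FPKM of 15.8, 19.8 and 17.5 in BMDM and of 0.0215, 0.0288 and 0.0234 in BSM. The means of 17.7 ± 2.02 (SD, n = 3) and 0.0246 ± 0.00379 (SD, n = 3) gave a ratio of 720, and of 677 to 788 whichever library was omitted. The depth behind such low FPKM is unknown, and a ratio with so low a denominator carries more error than its spread shows. With a pseudocount of 1, which dampens it, the log2 fold change was 4.18 (± 0.22 SE, limma adjusted p = 7.50e-06).

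**Figure D2:**
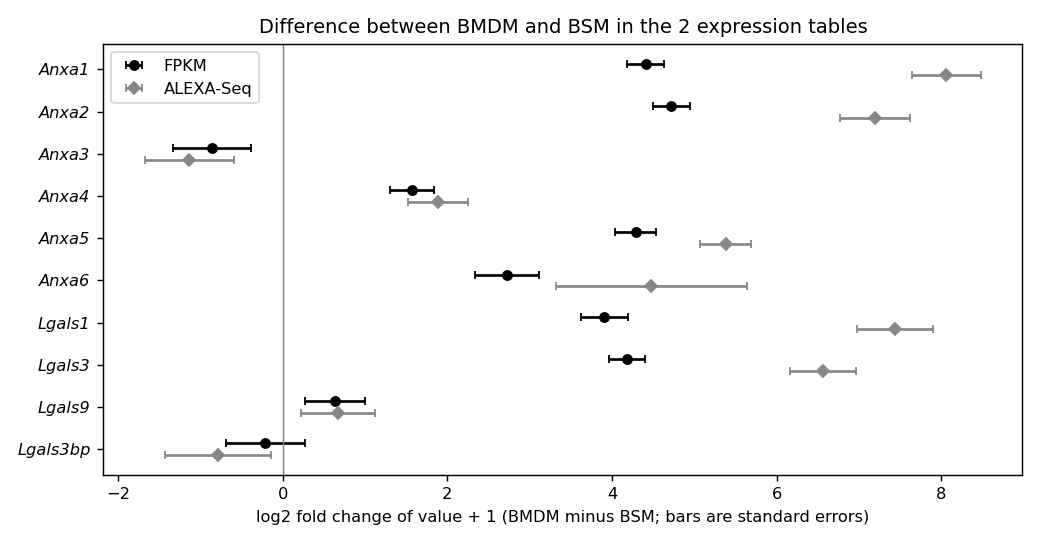
Log2 fold change (horizontal axis, BMDM minus BSM, of value + 1) of each member by FPKM (black circles) and by ALEXA-Seq (grey diamonds), with standard errors from limma. The 7 called members lie to the right of 0 in both tables, from 1.57 to 4.72 by FPKM, and Anxa3 lies to the left in both.

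The remaining members were not called in either direction. Anxa3, which encodes an annexin known from neutrophil granules and also reported in microglia, was the one annexin whose values were higher in BSM in most libraries (chromosome 5, 97222529 to 97274987, mm9). The FPKM was 3.31, 5.93 and 6.59 in BMDM and 4.33, 16.9 and 13.2 in BSM. BSM replicates 2 and 3 lay above every BMDM library, whereas BSM replicate 1 lay below 2 of the 3. Fitted over all libraries, BMDM minus BSM was -0.86 in log2 units (± 0.47 SE, 95% interval -1.95 to 0.23, limma adjusted p = 0.154).

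Whether Anxa3 was called depended on BSM replicate 1 and on the scaling of the libraries. Without that library, Anxa3 was at -1.39 (± 0.29 SE, limma adjusted p = 0.00670). That library was the only male library of BSM, so its sex and its RNA quality cannot be told apart. Between the female libraries alone, which leave out replicate 1 of both cell types, Anxa3 was at -1.13 (± 0.19 SE, limma adjusted p = 0.00667). Quantile normalization, which gives every library the same distribution of values, moved it to -1.66 with all 6 libraries kept (± 0.44 SE, limma adjusted p = 0.0208), and it was -1.60 with upper quartile scaling (adjusted p = 0.0339) and -2.01 with all libraries at the same sum (adjusted p = 0.0142). With that normalization the 7 other calls remained, 21.5% of all tested genes were called higher in BMDM and 19.4% higher in BSM. By ALEXA-Seq the log2 fold change of Anxa3 was -1.13 (± 0.54 SE, limma adjusted p = 0.121), and -1.72 without BSM replicate 1 (adjusted p = 0.00273). In GENCODE M21 an unreviewed gene model overlaps exons of Anxa3 on the same strand.

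Lgals9, a galectin with a pair of lectin domains (chromosome 11, 78776476 to 78798448, mm9), was expressed in both cell types. The FPKM was 5.56, 9.87 and 7.37 in BMDM and 2.36, 7.07 and 4.85 in BSM, and the groups overlapped, with BSM replicate 2 above BMDM replicate 1. The means were 7.60 ± 2.16 (SD, n = 3) and 4.76 ± 2.35 (SD, n = 3), a log2 difference of 0.64 (± 0.37 SE, 95% interval -0.21 to 1.49, limma adjusted p = 0.172). The direction changed with the scaling of the libraries, to -0.15 with quantile normalization and to -0.48 with all libraries at the same sum.

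Lgals3bp had no stable order of the cell types (chromosome 11, 118254065 to 118263406, mm9). Its FPKM was 1.77, 4.34 and 3.55 in BMDM and 8.76, 2.50 and 2.04 in BSM, so that the highest value of all was that of BSM replicate 1, while the other BSM libraries lay within the range of BMDM. Its log2 fold change was -0.21 (± 0.48 SE, 95% interval -1.32 to 0.90, limma adjusted p = 0.730) and 0.32 without BSM replicate 1 (adjusted p = 0.408). ALEXA-Seq gave 164.5 in BSM replicate 1 and between 25.6 and 39.7 in the other 5 libraries.

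The scaling of the libraries moved all members together. Over the tested genes the median of the log2 fold changes was 0.81 as deposited, 0.14 with upper quartile scaling, 0.01 with quantile normalization and -0.23 with all libraries at the same sum. Relative to the median of 0.81, the members ranged from 3.92 (Anxa2) to -1.66 (Anxa3), with 0.77 for Anxa4, -0.17 for Lgals9 and -1.02 for Lgals3bp. The direction of Lgals9 flipped under each of these 3 scalings, and the directions of the 7 called members did not. Scaled to the same sum, 6 of the 7 were still called.

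**Figure D3:**
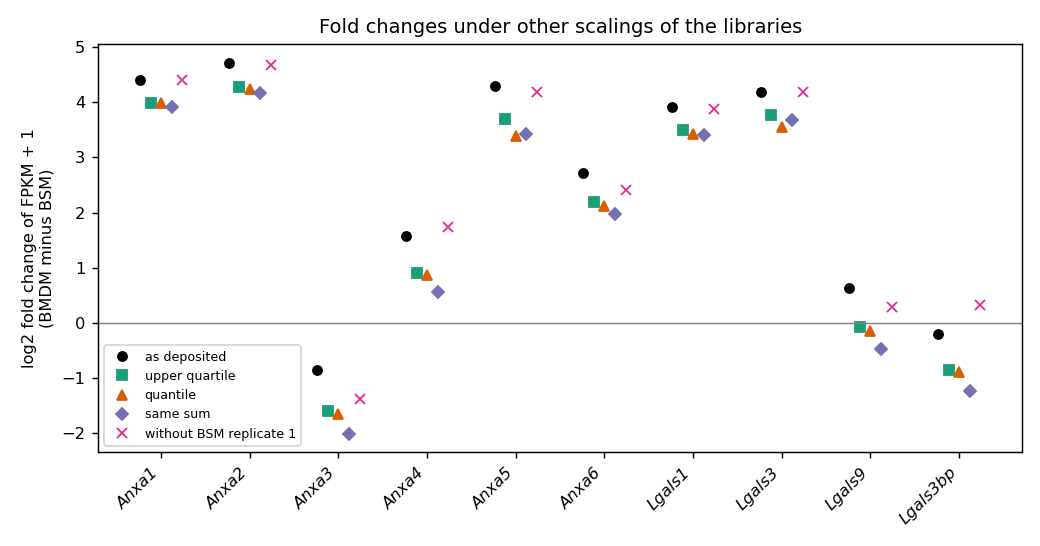
Log2 fold change of FPKM + 1 (vertical axis, BMDM minus BSM) of each member as deposited, under 3 other scalings of the libraries and without BSM replicate 1. Anxa1, Anxa2, Anxa5, Anxa6, Lgals1 and Lgals3 stay at or above 1.98 under all of them, Anxa3 stays below 0, and Lgals9 and Lgals3bp lie on both sides of 0.

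The composition of each family within a library stays the same when all values of that library are multiplied by a common factor. This is so for upper quartile scaling and scaling to the same sum, whereas quantile normalization can change it. The 11 annexin genes of the table summed to 90.1, 125 and 113 FPKM in BMDM and to 7.51, 21.7 and 18.3 FPKM in BSM. Anxa3 made up 3.68, 4.76 and 5.86% of that sum in BMDM and 57.7, 77.8 and 71.9% in BSM. Among the members this was the largest shift in share, with no overlap between the groups also in BSM replicate 1, where its level was low. A share also moves with the sum, which was 109 ± 17.5 FPKM in BMDM (SD, n = 3) and 15.9 ± 7.42 FPKM in BSM (SD, n = 3), and the level of Anxa3 itself overlapped between the groups, at means of 5.28 and 11.5 FPKM. Anxa5 went the other way, from 29.3 ± 2.31% of the BMDM sum (SD, n = 3) to 4.67 ± 1.27% of the BSM sum (SD, n = 3). Anxa2 made up between 23.9 and 26.3% in BMDM and at most 1.05% in BSM, and Anxa1 between 16.5 and 20.7% and at most 0.264%. Anxa4, at 7.43 ± 1.84% (SD, n = 3) in BMDM, took 36.3% in BSM replicate 1 but 8.97 and 7.62% in the other BSM libraries, so its shares overlapped.

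Among the 9 galectin genes, which summed to 42.9, 57.6 and 52.3 FPKM in BMDM and to 14.5, 25.3 and 21.9 FPKM in BSM, Lgals1 and Lgals3 together held most of the sum in BMDM. The share of Lgals3 was 36.7, 34.4 and 33.4% in BMDM and at most 0.148% in BSM, and that of Lgals1 was 22.7, 32.5 and 32.0% and at most 0.227%. In BSM the sum was made up of Lgals8, at 83.5, 70.9 and 76.5%, and of Lgals9, at 16.3, 28.0 and 22.1%. The shares of Lgals9 in BMDM were 12.95, 17.1 and 14.1%, which overlapped those in BSM. The shares of Anxa1, Anxa2, Anxa5, Anxa6, Lgals1 and Lgals3 in BMDM, and that of Anxa3 in BSM, lay above those in the other cell type without overlap, and each had p = 0.1 in an exact permutation test (two-sided, n = 3 per group), the smallest value this design allows. Shares of the same sum depend on each other and on the levels given above, so these are not independent results.

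**Figure D4:**
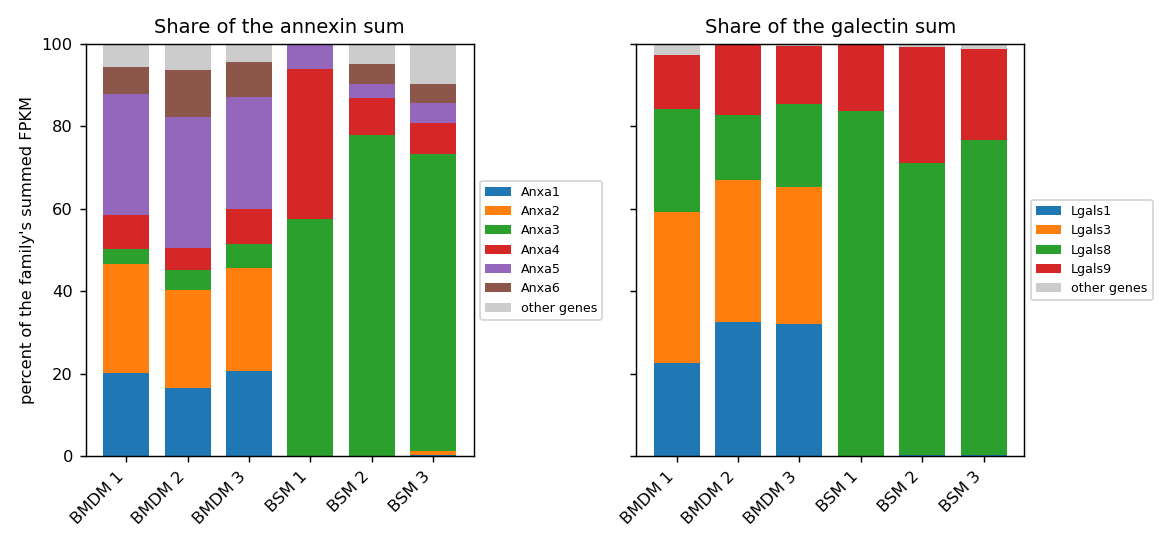
Percent of the summed FPKM of 11 annexin genes (left) and of 9 galectin genes (right) that each gene takes in each library; grey stands for the remaining genes of the family. Anxa1, Anxa2 and Anxa5 fill most of the annexin bar in BMDM and Anxa3 most of it in BSM, while Lgals1 and Lgals3 are visible only in BMDM and Lgals8 takes 70.9 to 83.5% in BSM.

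Ordered by mean FPKM, the members stood in BMDM as Anxa5, Anxa2, Anxa1, Lgals3, Lgals1, Anxa6, Anxa4, Lgals9, Anxa3 and Lgals3bp. Of the 9 pairs of neighbours in this order, only Anxa2 and Anxa1 had ranges that did not overlap, although within each of the 3 libraries the first exceeded the second in 7 of the 9 pairs. In BSM the order was Anxa3, Lgals9, Lgals3bp, Anxa4, Anxa5, Anxa6, Anxa2, Lgals1, Lgals3 and Anxa1, and only Anxa4 and Anxa5 were neighbours without overlap, with 3 of the 9 pairs in the same order in all 3 libraries. Anxa3 therefore stood ninth in BMDM and first in BSM, at a mean of 11.5 FPKM with values from 4.33 to 16.9. Among all 35237 genes ordered by mean FPKM, Anxa5 held position 569 in BMDM and 7221 in BSM, whereas Anxa3 held position 3384 in BMDM and 952 in BSM. Lgals9 lay at nearly the same position in both, 2559 in BMDM and 2273 in BSM.

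BMDM replicate 2, in which the granulocyte and erythroid marker sums and the sum of all FPKM were highest, had the highest BMDM value in 7 of the 10 members and in 50.5% of all tested genes. BSM replicate 1 alone had the lowest BSM value in 7 of the 10 members and in 59.7% of all tested genes. Without BMDM replicate 2 all 7 calls by FPKM remained, with log2 fold changes from 1.68 to 4.65, and without BSM replicate 1 they remained as well, from 1.74 to 4.68. The part of other cell types in the BMDM values was not tested beyond this.

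Of the remaining annexins, 5 of the 6 listed were in the FPKM table under their symbols and 1, Anxa7, passed the FPKM minimum. It did so in BMDM libraries alone. Anxa7, an annexin of secretory vesicles, had an FPKM of 3.57, 4.50 and 3.37 in BMDM and of 0.0113, 0.945 and 1.03 in BSM. The BSM libraries all lay below BMDM, replicate 1 by the widest margin. On the log2 scale the difference was 1.59 (± 0.34 SE, limma adjusted p = 0.00573), and the call was lost after upper quartile scaling (adjusted p = 0.0523) and after scaling to the same sum (adjusted p = 0.133). Anxa8 and Anxa10 were listed at 0 in every library, and Anxa9 and Anxa11 stayed at or below 2.87 and 0.511 FPKM.

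Of 7 further galectin genes, 6 were in the table and only Lgals8 passed the minimum. Lgals8, a galectin that binds damaged endosomes and lysosomes, had an FPKM of 10.7, 9.21 and 10.5 in BMDM and of 12.1, 17.9 and 16.8 in BSM. The groups did not overlap, with BSM above BMDM. BMDM minus BSM was -0.56 in log2 units (± 0.24 SE, limma adjusted p = 0.0787), and without BSM replicate 1 it was -0.72 (adjusted p = 0.00842). After quantile normalization it was -1.34 (adjusted p = 0.00522), and by ALEXA-Seq as deposited it was -0.81 (adjusted p = 0.0195). Exons of the protein-coding gene Heatr1 overlap those of Lgals8 on the opposite strand in GENCODE M21. Of the longest Lgals8 transcript 5.5% has a near-identical copy in Heatr1, and reads of the overlap cannot be told apart. Lgals4 reached at most 1.19 FPKM, and Lgals2, Lgals7, Lgals12 and Grifin at most 0.0267 FPKM in any library.

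Genes for proteins that bind annexins, or receive their signals, were mostly higher in BMDM as well. Of 10 such genes, 7 passed the minimum, and 6 of these were higher in BMDM and 1 was higher in BSM at an adjusted p under 0.05 in limma, with a median log2 fold change of 4.28, beside 45.3% and 9.22% of all tested genes. Of the 6, S100a10, S100a6, S100a4, Ahnak and Fpr2 reached the FPKM minimum in BMDM libraries alone, and so entered the test through the group in which they were high. S100a10, the partner of annexin A2, had an FPKM of 17.1, 28.4 and 23.8 in BMDM and of 0, 0.434 and 0.249 in BSM, with a log2 fold change of 4.28 (± 0.28 SE, limma adjusted p = 2.04e-05), beside 4.72 for Anxa2 itself. Ahnak, a giant scaffold protein recruited by the complex of annexin A2 and S100a10, had 133, 135 and 144 FPKM in BMDM and at most 0.182 in BSM. S100a11, the partner of annexin A1, lay between 828 and 1094 FPKM in BMDM and between 0.0401 and 3.95 in BSM, and S100a6 and S100a4, other calcium-binding S100 proteins, were between 8.06 and 61.0 in BMDM and at most 0.0453 in BSM. Fpr2, a receptor for annexin A1, was at 7.76, 5.64 and 6.92 FPKM in BMDM and at most 0.0832 in BSM. Most of the longest transcript of S100a11 (58.1%), S100a4 (60.6%) and Fpr2 (91.9%) has a near-identical copy in another annotated gene, so their values are uncertain.

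Pla2g4a, the cytosolic phospholipase A2 whose activity annexins are known to limit, was the exception. Its FPKM was 6.43, 8.71 and 7.53 in BMDM and 16.6, 13.5 and 13.01 in BSM, with no overlap. The difference in log2 units was -0.85 (± 0.23 SE, limma adjusted p = 0.0164), and the call was lost without BMDM replicate 1 (adjusted p = 0.0529) or BMDM replicate 3 (adjusted p = 0.0608). Fpr1 reached at most 0.433 FPKM, and Dysf and Fpr3 were listed at 0 in every library.

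Genes for glycoproteins that galectins bind, and for the enzymes that build their sugars, were called in both directions, in numbers that depended on the scaling. Of 14 such genes 11 passed the minimum, of which 3 were higher in BMDM, 4 were higher in BSM and 4 were not called as deposited, against 45.3% (BMDM) and 9.22% (BSM) of all tested genes. The median log2 fold change of the 11 was 0.05. Cd44 reached the minimum in BMDM libraries alone, and Mertk, Mgat4a and St6gal1 did so in BSM libraries alone. Each of these thus entered the test through the group in which it was high. With quantile normalization the numbers were 2 for BMDM and 6 for BSM, and with all libraries at the same sum 1 (Cd44) was higher in BMDM and 7 in BSM. Cd44, an adhesion receptor, had 43.2, 39.0 and 43.3 FPKM in BMDM and 0.269, 0.253 and 0.317 in BSM, and differed by 5.06 log2 units (± 0.21 SE, limma adjusted p = 2.91e-06). Ptprc, which encodes CD45 and was part of the sort, and Lamp1, a lysosomal glycoprotein, had log2 fold changes of 1.61 and 1.64, but the call of Ptprc was lost after each of the 3 scalings (adjusted p = 0.0795 after quantile normalization) and that of Lamp1 after scaling to the same sum (adjusted p = 0.221).

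In the other direction, Havcr2, which encodes TIM-3, a receptor for galectin 9, had 4.01, 2.42 and 2.82 FPKM in BMDM and 136.5, 125 and 87.2 in BSM. BMDM minus BSM was -4.84 in log2 units (± 0.27 SE, limma adjusted p = 9.59e-06), while its ligand gene Lgals9 was not called. Mertk, a receptor of phagocytes for which galectin 3 has been described as a ligand, had at most 0.228 FPKM in BMDM and 51.0, 70.4 and 71.5 in BSM, so that Mertk and Lgals3 were high in different cell types. Mgat4a, which adds branches to N-glycans, was at 1.13, 1.94 and 2.05 FPKM in BMDM and 36.1, 48.7 and 42.5 in BSM. St6gal1, which caps galactose with sialic acid and so masks sites for galectin 1, was at 1.06, 1.304 and 1.74 FPKM in BMDM and 5.60, 14.3 and 15.9 in BSM (log2 fold change -2.34 ± 0.38 SE, limma adjusted p = 0.00168). Itgb1, Lamp2, Mgat1 and B4galt1 were not called as deposited, with log2 fold changes of 0.80, 0.35, -0.63 and 0.05. B4galt1 and Mgat1 were called higher in BSM under each of the 3 other scalings (-0.70 and -1.34 with quantile normalization), and Lamp2 with all libraries at the same sum (-0.95, limma adjusted p = 0.0127). Mgat2, Mgat4b and Mgat5 stayed at or below 1.69 FPKM.

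**Figure D5:**
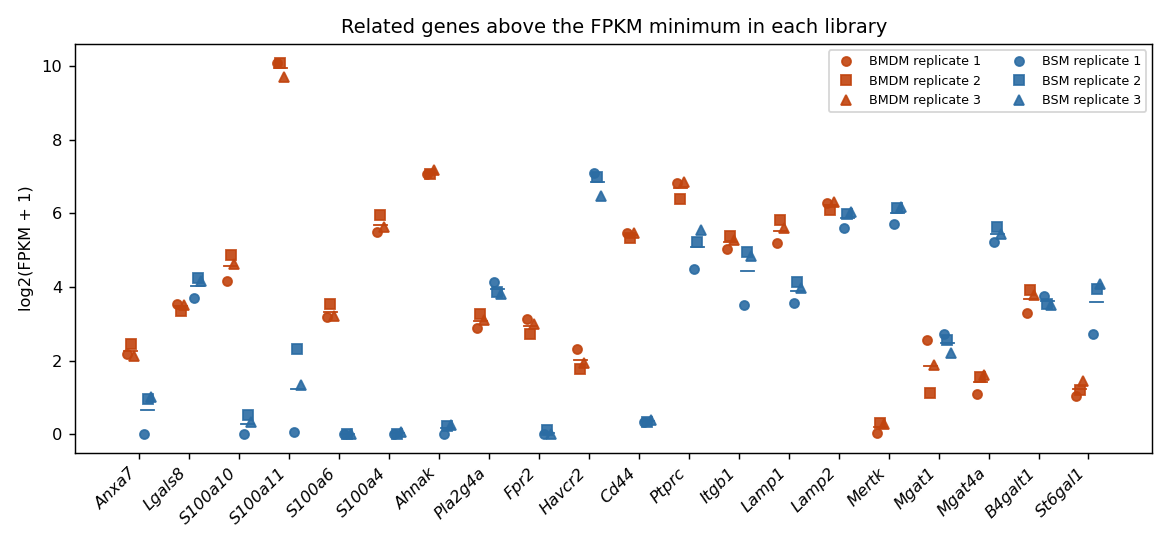
Level of the 20 related genes that passed the FPKM minimum in each library, as log2(FPKM + 1), with BMDM in red, BSM in blue, marker shapes for the replicates and short lines for group means. The annexin partners S100a10, S100a11, S100a6, S100a4 and Ahnak are high in BMDM and low in BSM, whereas Havcr2, Mertk, Mgat4a and St6gal1 are higher in BSM.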

How the data were processed

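RNA-Seq libraries of 3 BMDM and 3 BSM pools were analysed. Per the labels, TopHat 1.3.1, Bowtie 0.12.7, CASAVA 1.7.0 and Cufflinks 1.0.3 and the build mm9 were named in the submitters' processing notes. The authors deposited FPKM values from Cufflinks for 35237 genes, scaled by exon length and mapped reads, and an ALEXA-Seq expression signal for 36536 genes whose unit is not given in the sources used here. Neither table holds read numbers, so the depth behind a value is unknown and no count test was run.

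FPKM were compared with limma 3.58.1 in R 4.3.3 (mean-variance trend, no covariates) on log2(FPKM + 1) over the 6364 genes that reached an FPKM of 3 in 1 or more libraries, with Benjamini-Hochberg adjustment and calls at an adjusted p under 0.05. A fold change on this scale understates that of low genes. The 6364 genes with the highest ALEXA-Seq signal were fitted likewise. The fit was tested on simulated FPKM in which few genes changed and the libraries shared a common scale. That test does not cover the differences in scale between these libraries. Shares were compared by an exact two-sided permutation test with scipy 1.17.1, which cannot go below 0.1 for 3 against 3. The replicates were separate pools of mice, so p-values measure the spread between pools.

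All 10 members and 4 lists of 37 related genes are named, whether they differed or not, and other genes only where a result turns on them. The members and lists, including 10 lists of cell type markers, were chosen with earlier results of these data known. Near-identical copies (blastn 2.17.0, at least 100 bases at 95% identity) and overlapping exons were taken from GENCODE M21, and promoters from RefSeq (GRCm38.p6), by symbol only, without moving coordinates between builds. Starts in the files count from 0 and are given here counted from 1. The main fits did not treat libraries with the same replicate number as pairs. The alternatives were other pseudocounts, minimums, scalings and moderation, library quality weights, a replicate block, the female libraries alone and leaving out each library.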

Additional observations from a re-analysis of the deposited data

How the results depend on the processing

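All 7 members called higher in BMDM by FPKM kept that call under 15 of 16 alternatives, the exception being Anxa4 when libraries were scaled to the same sum. By ALEXA-Seq, 5 to 7 of the 7 kept it under each of 15 alternatives, with Anxa4, Anxa6 or both lost where it was fewer than 7. The number of members called higher in BSM by FPKM was 0 as deposited and 1 (Anxa3) with upper quartile scaling, quantile normalization or all libraries at the same sum, with library quality weights, and among the female libraries alone, and between 0 and 1 with each library left out. By ALEXA-Seq it was also 0 as deposited and 1 under each of these alternatives, except for 2 after scaling to the same sum, and between 0 and 1 with each library left out. The 2 after scaling to the same sum were Anxa3 and Lgals3bp, the latter at -2.04 (limma adjusted p = 0.0365). Of the related genes, 5 were higher in BSM as deposited, 8 with upper quartile scaling, 8 with quantile normalization and 9 with all libraries at the same sum, while 10, 8, 9 and 7 were higher in BMDM. Over all tested genes, those higher in BSM went from 587 to 1051, 1234 and 1585 under the same scalings. The cause of these shifts was not tested.

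The log2 fold change of Lgals9 turned with upper quartile scaling to -0.085 (FPKM) and -0.051 (ALEXA-Seq), with quantile normalization to -0.15 and -0.065, and with all libraries at the same sum to -0.48 and -0.60. That of Lgals3bp turned by FPKM to 0.29 with library quality weights, 0.07 without BMDM replicate 1, 0.32 without BSM replicate 1 (from -0.52 to 0.32 with each library left out) and 0.59 among the female libraries, and by ALEXA-Seq to 0.14 among the female libraries. The cause was not tested.

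Whether BMDM and BSM libraries with the same replicate number came from the same mice is not stated in the sources used here. The deviations of libraries with the same number correlated at -0.02, -0.01 and 0.13, which cannot decide it. With the replicate number as a block, 1 member (Anxa3) was called higher in BSM in each table (limma adjusted p = 0.0491 by FPKM and 0.0489 by ALEXA-Seq), and the 7 calls in BMDM remained. By FPKM 3471 of all tested genes were called with the block and 3470 without it, and by ALEXA-Seq 2885 and 3050.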
